A study of Caenorhabditis elegans with 40 samples.

Results

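The genes that encode the subunits of the 26S proteasome were examined in C. elegans heterozygous for a null allele of a cytosolic ribosomal protein (RP) gene. Members were all genes of the RNA table whose symbol starts with pas-, pbs-, rpt- or rpn-, which gave 33 of 9532 genes. They fell into 7 alpha and 7 beta subunit genes of the 20S core, 10 genes of the 19S base and 9 genes of the 19S lid. The mutants were rpl-5(0)/+ and rpl-33(0)/+ over the balancer mIn1 (written mc6 in the labels), rps-10(0)/+ over tmC20 and rps-23(0)/+ over tmC5, where (0) is a null allele and the balancer, a rearranged chromosome, maintains it in the heterozygous state. Mutants were sampled at day 4. Their controls, wild-type worms carrying the matching balancer, were sampled at day 3 to match by stage and at day 4 to match by time. The study or the labels give stage L4 for mutants and day 3 controls, and the labels call the day 4 controls pregravid adults. Exceptions are the RNA-seq labels of day 4 replicate 2 of tmC20 and of tmC5, which say L4. The Ribo-seq labels of those replicates say pregravid adults. All animals were grown at 16°C and each library came from whole animals pooled, so that fewer cells of a type and less RNA per cell cannot be told apart. The study describes the replicates as independent, and p-values here measure the spread between these libraries. Where day 3 and day 4 controls are pooled, that spread includes the difference between ages.

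The proteasome is the protease that degrades ubiquitin-tagged proteins in the cytosol and nucleus. Its 20S core is a barrel of stacked rings, with the alpha subunits (pas genes) in the outer rings forming the gate and the beta subunits (pbs genes) in the inner rings holding the active sites, of which pbs-1, pbs-2 and pbs-5 encode the catalytic subunits. The 19S particle caps the barrel. Its base contains the ring of ATPases (rpt genes) that unfold substrates, the scaffolds rpn-1 and rpn-2 and the ubiquitin receptors rpn-10 and rpn-13, and its lid contains the deubiquitinase rpn-11 within a frame of other rpn subunits. When proteasome function falls, C. elegans raises transcription of the subunit genes through the SKN-1A form of the transcription factor SKN-1.

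The RNA table held 20 columns, of which 17 were distinct. The columns headed rpl-5(0)/+ repeated those headed rpl-33(0)/+ count for count. These libraries were used once, are called the shared pair, and cannot be assigned to either genotype. Replicate 2 of the tmC20 controls had the same counts under day 3 and day 4, and was also used once. This left 2 libraries for each of the shared pair, rps-10(0)/+ and rps-23(0)/+, with 4 mIn1, 3 tmC20 and 4 tmC5 control libraries. The mIn1 day 4 columns share a heading, as do those of tmC5 day 4, and a mIn1 day 3 column has a replicate number in no label. Replicate numbers given here for those groups follow the order of the columns. Totals ran from 1017787 to 2384186 counts per library, and the members took 5458 to 16734 counts of each library, or 0.478% to 0.732%. A pair of tmC5 control columns went against their headings. One headed day 3 had a summed level of 68541 counts scaled to a common library size (CPM, after TMM scaling) over 6 yolk genes and 399 CPM over the 13 of 16 molting genes present, where 4 other day 3 libraries had 1744 to 17477 and 2357 to 8417 CPM. One headed day 4 had 3384 and 5713 CPM, where 4 other day 4 libraries had 82975 to 105215 and 288 to 425 CPM. A tmC5 day 4 sample is labelled L4, but the columns cannot be tied to it. Counts of members called with age, subcomplex medians and the changes of single members over the balancers are therefore given with and without those columns. Other results on age leave them out or give them apart. Leaving them out was a choice made after the data had been seen.

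All 33 members had 250 bases before their annotated start searched for the SKN-1 core, spelled TGTCAT or TATCAT, on either strand. TGTCAT was present before 9 of 33 members (27.3%) and before 12.5% of 19984 genes. TATCAT was present before 4 (12.1%) and 16.5% of all genes, and either form before 12 (36.4%) and 26.8%. A match is a description and not a binding site. The windows of 4 members on which the results below turn are printed 5′ to 3′ from RefSeq, build WBcel235, with any match in capitals: pbs-1 (chrIV:1709746-1709995, minus strand), rpn-3 (chrIII:8447103-8447352, plus strand), rpn-5 (chrII:4698428-4698677, minus strand) and rpt-6 (chrIII:12370206-12370455, plus strand). They are shown because rpn-3 was the member that differed most in the mutants, rpn-5 was among those that differed most with control age, rpt-6 had the smallest change with age, and pbs-1 encodes a catalytic subunit.
pbs-1: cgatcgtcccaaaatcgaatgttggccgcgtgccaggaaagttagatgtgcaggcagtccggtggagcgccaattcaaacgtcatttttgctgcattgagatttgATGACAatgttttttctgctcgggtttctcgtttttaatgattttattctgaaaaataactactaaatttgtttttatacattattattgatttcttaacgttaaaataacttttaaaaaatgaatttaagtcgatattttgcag
rpn-3: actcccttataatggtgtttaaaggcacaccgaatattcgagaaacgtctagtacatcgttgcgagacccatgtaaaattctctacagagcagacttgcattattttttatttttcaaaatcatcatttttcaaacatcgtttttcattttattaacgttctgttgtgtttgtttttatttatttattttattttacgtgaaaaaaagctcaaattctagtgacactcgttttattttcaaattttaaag
rpn-5: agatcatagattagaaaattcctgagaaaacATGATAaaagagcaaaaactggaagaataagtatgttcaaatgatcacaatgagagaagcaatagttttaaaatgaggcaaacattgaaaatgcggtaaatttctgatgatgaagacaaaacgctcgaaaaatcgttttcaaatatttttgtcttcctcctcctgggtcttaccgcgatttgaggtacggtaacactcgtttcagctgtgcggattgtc
rpt-6: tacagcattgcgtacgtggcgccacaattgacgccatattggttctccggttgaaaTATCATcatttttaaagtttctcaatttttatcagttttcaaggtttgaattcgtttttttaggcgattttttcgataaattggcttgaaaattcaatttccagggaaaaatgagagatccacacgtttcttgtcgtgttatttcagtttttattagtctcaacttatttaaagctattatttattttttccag
The windows of pbs-1, rpn-5 and rpt-6 each held 1 match, which lay on the opposite strand for pbs-1 and rpn-5, and that of rpn-3 held 0.

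In the 11 control libraries, members were transcribed well above the typical gene. Per kilobase of coding sequence the median member had 133 CPM, against 24.6 CPM over 9250 genes. By this measure the alpha genes had a median of 260 CPM, the beta genes 149, the base genes 120 and the lid genes 135. The highest level was that of pas-5, an alpha ring subunit, at 401 ± 84.8 CPM per kilobase (SD, n = 11), followed by pas-7 at 392.3 ± 46.7 and by rpt-2, a base ATPase, at 384 ± 66.5. These neighbours did not differ beyond their spread. Next came pas-6 at 282 ± 22. Most of the others lay between 85.9 ± 18.3 (rpn-13) and 260 ± 42.2 (pas-3). The lowest level was that of rpn-6.2 at 14.96 ± 6.87, with 7 to 51 counts per library. Its paralog rpn-6.1, a lid scaffold, had 91.5 ± 24.5, and the coding sequences of this pair share 0 stretches of 25 bases. In the unit used below, CPM per gene without the length, 10 members overlap exons of another gene (among them rpn-7 with nemt-1 and rpt-6 with glrx-5), so that their counts are uncertain where the counting split such reads.

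**Figure D1:**
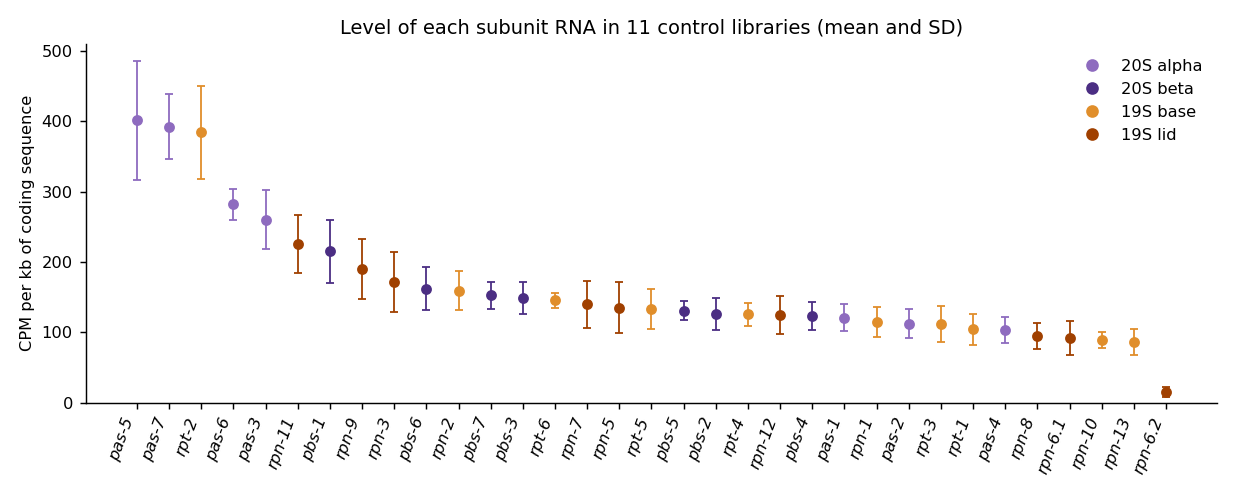
Mean level of each member over the 11 control libraries in CPM per kilobase of coding sequence, with SD bars. Genes are ordered by level and coloured by subcomplex. The alpha genes pas-5 and pas-7 and the base ATPase rpt-2 are highest, at means of 401, 392.3 and 384, and rpn-6.2 is lowest at 14.96.

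Summed over subunits, the 20S core and the 19S particle were both higher in the older controls. The 4 day 3 control libraries whose markers matched their heading had 1783 to 1970 CPM over the 14 core genes and 3055 to 3383 CPM over the 19 genes of the 19S particle. The 4 such day 4 libraries had 2137 to 2329 and 4151 to 4437 CPM, with no overlap in either sum. The mutants spanned both ranges. The rps-10(0)/+ libraries had 1845 and 1987 CPM for the core and 3449 and 3673 CPM for the 19S particle. The rps-23(0)/+ libraries had 2366 and 2312 CPM, and 4142 and 3929 CPM. The shared pair had 2151 and 2621 CPM, and 3380 and 4513 CPM with the lower values in replicate 1. The ratio of 19S to 20S was 1.66 to 1.79 at day 3, 1.87 to 2.02 at day 4 and 1.57 to 1.87 in the mutants. The tmC5 column headed day 3 with adult markers had 2391 and 4226 CPM, and the one headed day 4 with larval markers had 1777 and 3013 CPM. The tmC20 column headed for both days had 1810 and 3303 CPM.

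**Figure D2:**
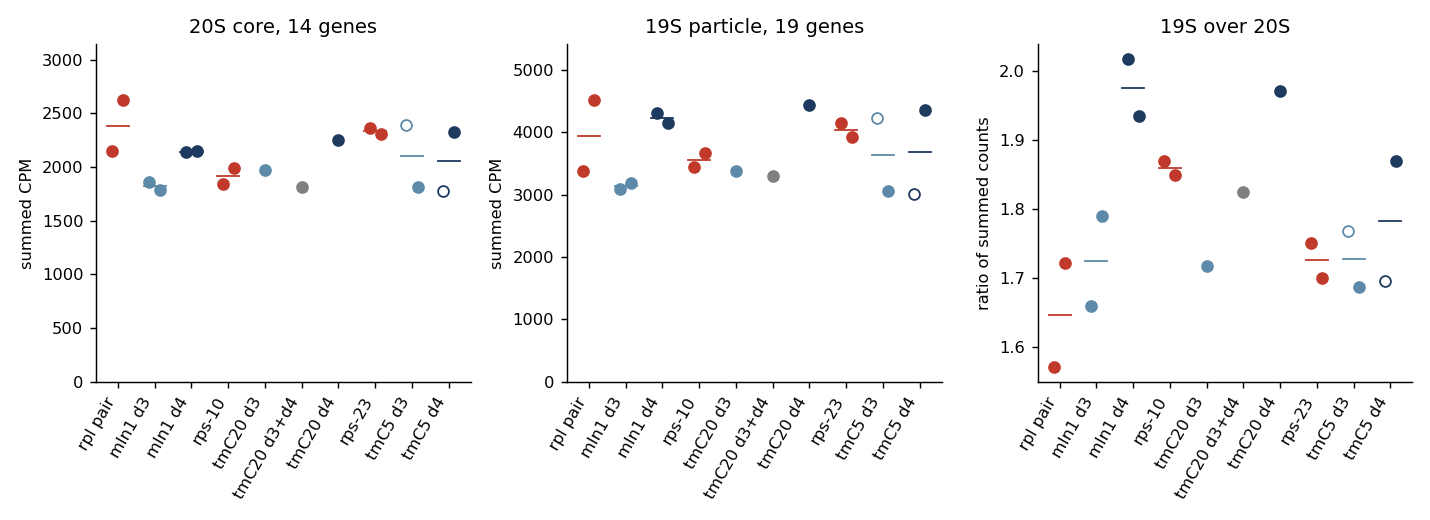
Summed CPM of the 20S core genes and of the 19S genes in each of the 17 distinct RNA libraries, by group. Open circles are the pair of tmC5 columns whose stage markers go against their headings. The day 4 controls lie above the day 3 controls for both sums once those are set aside.

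Each mutant was set against the pooled day 3 and day 4 controls carrying its balancer, to ask whether loss of an RP gene copy was accompanied by a change of proteasome transcripts. Here an adjusted p is that of edgeR's quasi-likelihood test with the Benjamini-Hochberg adjustment over all genes tested, with a threshold of 0.05. All 33 members passed the filter on low counts, and 0 passed the threshold in any mutant. In the shared pair, 0 members were called with 2 (pas-5 and rpn-3) at an unadjusted edgeR p under 0.05, where 2.54% of 9276 genes were called. In rps-10(0)/+, 0 were called with 0 at an unadjusted p under 0.05, where 0.129% of genes were called. In rps-23(0)/+, 0 were called with 1 (rpn-3), where 0.625% were called. All mutants against all controls were fitted as 2 groups with no term for balancer or age. There 0 were called with 1 (rpn-3), where 1.91% of 8546 genes were called. DESeq2 and limma voom also called 0 members in each of these comparisons. The 95% interval lay within 1 on the log2 scale of no change for 28 of 33 members in the shared pair, 32 in rps-10(0)/+, 31 in rps-23(0)/+ and 33 over all mutants. The spread in these tests includes the difference between control ages. The median SE of the members in the shared pair was 0.243 here and 0.197 with day 3 controls without the pair of tmC5 columns.

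Member changes were small in every subcomplex. The median log2 fold change of the shared pair was 0.17 for the alpha genes, 0.31 for the beta genes, 0.01 for the base and 0.03 for the lid, beside -0.02 for all genes. In rps-23(0)/+ the medians were 0.18, 0.10, 0.14 and 0.07, beside -0.08. In rps-10(0)/+ they were -0.08, -0.08, -0.07 and -0.08, beside -0.05. Of the 14 core genes, 13 had a positive value in the shared pair and 13 in rps-23(0)/+, while 3 did in rps-10(0)/+. None of these directions was called, and scaling by library totals in place of TMM moved them below 0, giving core medians of -0.12 in the shared pair and -0.01 in rps-23(0)/+ beside all-gene medians of -0.32 and -0.25. Both libraries of the shared pair lay above all 4 mIn1 controls for 6 members (pas-5, pbs-3, pbs-4, pbs-5, rpn-3 and rpt-4), where 17.7% of all genes lay above. Both rps-23(0)/+ libraries lay above all 4 tmC5 controls for 4 members (pas-2, pbs-5, rpn-3 and rpt-6), where 1494 of 9276 genes lay above and 24.8% lay wholly above or wholly below. Both rps-10(0)/+ libraries lay below all 3 tmC20 controls for 3 members (pas-1, pas-6 and pbs-2), where 8.83% of all genes lay below. These shares of members were near those of all genes.

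**Figure D3:**
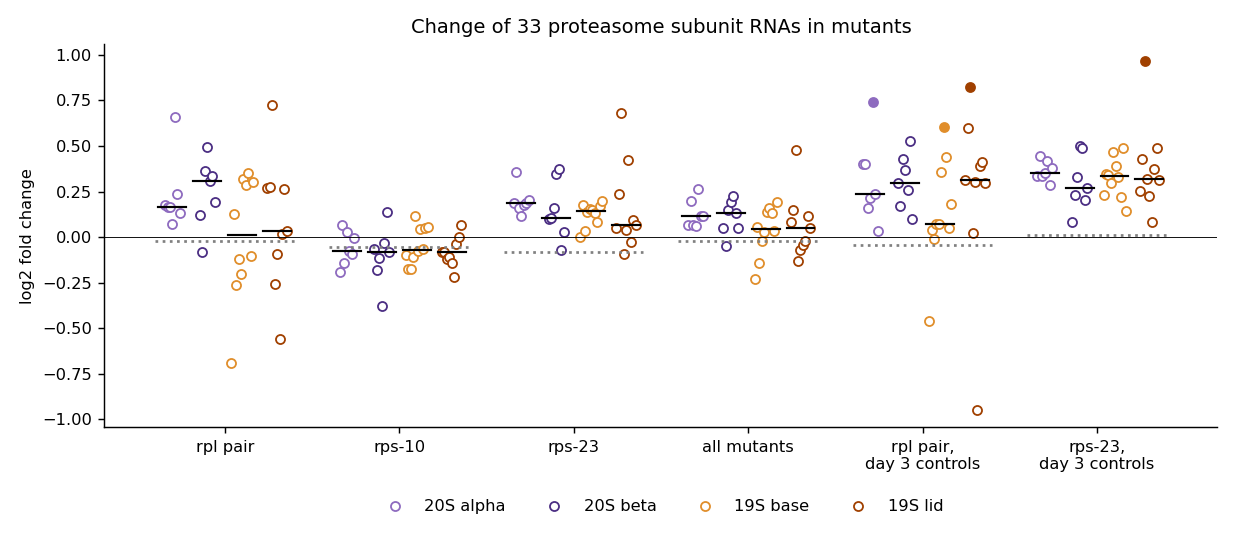
Log2 fold change of each member (1 point per gene) in the shared pair, rps-10(0)/+, rps-23(0)/+ and over all mutants against the controls of both ages, by subcomplex. Black bars are medians of the subcomplex and dotted grey lines the median of all genes tested. In the groups set against controls of both ages every point is open, since 0 members reached an adjusted p under 0.05. The groups at right set the shared pair and rps-23(0)/+ against day 3 controls without the pair of tmC5 columns. Filled points there have an adjusted p under 0.05.

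The largest difference among members was that of rpn-3, a structural subunit of the lid (chromosome III, 8447353 to 8449346). The shared pair had 489 and 494 CPM, and the mIn1 controls had 259 and 271 CPM at day 3 and 384 and 278 CPM at day 4. The rps-23(0)/+ libraries had 359 and 349.7 CPM, and the tmC5 controls had 253 and 177 CPM under day 3 and 192 and 259.6 CPM under day 4. Both mutants lay above every control of their balancer. The rps-10(0)/+ libraries had 241 and 237 CPM and lay within the tmC20 controls, which had 211 CPM at day 3, 211 CPM in the column headed for both days and 357 CPM at day 4. On the log2 scale the change was 0.72 ± 0.25 (SE) in the shared pair (edgeR adjusted p = 0.155), 0.68 ± 0.25 in rps-23(0)/+ (edgeR adjusted p = 0.312), -0.12 ± 0.27 in rps-10(0)/+ (edgeR adjusted p = 1.00) and 0.48 ± 0.19 over all mutants (edgeR adjusted p = 0.210).

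Among the alpha genes, pas-5 had 366 and 463 CPM in the shared pair, above the 225 and 248 CPM at day 3 and 252 and 326 CPM at day 4 of the mIn1 controls. The change on the log2 scale was 0.66 ± 0.24 (edgeR adjusted p = 0.171). In rps-23(0)/+ it had 384 and 368 CPM, within the tmC5 range of 275 to 399 CPM. For pas-2, another alpha gene, rps-23(0)/+ had 103.9 and 86.2 CPM against 85.8, 67.8, 59.3 and 82.7 CPM in tmC5, and the shared pair had 100.2 and 88.3 CPM against 70.02, 65.5, 100.1 and 100.4 CPM in mIn1. The lowest alpha gene over all mutants, pas-4, had a log2 fold change of 0.06 ± 0.14.

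None of the 3 catalytic genes was called. For pbs-5, whose product carries the chymotrypsin-like activity, the shared pair had 135 and 150.3 CPM against 117, 110.3, 111 and 122 CPM in mIn1. The rps-23(0)/+ libraries had 133 and 148 CPM against 104.04, 98.2, 102 and 131 CPM in tmC5, and the rps-10(0)/+ libraries had 99.3 and 116 CPM against 113, 95.5 and 122 CPM in tmC20. The shared pair and rps-23(0)/+ thus lay above all their controls and rps-10(0)/+ within them, and the log2 fold change over all mutants was 0.23 ± 0.11 (edgeR adjusted p = 0.270). For pbs-1, the caspase-like subunit, the value was 0.05 ± 0.15, with 202 and 171 CPM in the shared pair and 127 to 233 CPM in mIn1. For pbs-2, the trypsin-like subunit, it was -0.05 ± 0.13, with 89.2 and 116 CPM in the shared pair and 86.2 to 149 CPM in mIn1.

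In the base, the ATPase gene rpt-6 had the highest value over all mutants and the scaffold gene rpn-1 the lowest. For rpt-6 the rps-23(0)/+ libraries had 224 and 216 CPM, above 191, 194, 189 and 190.5 CPM in tmC5, a change of 0.20 ± 0.22 on the log2 scale. In the shared pair rpt-6 had 143 and 274 CPM, on both sides of the 150.2 to 176 CPM in mIn1. For rpn-1 the shared pair had 124 and 291 CPM against 249 and 296 CPM at day 3 and 417 and 377 CPM at day 4, with a log2 fold change of -0.69 ± 0.33 (edgeR adjusted p = 0.264). One library of the shared pair thus lay below all 4 controls and the other within them. The ubiquitin receptor gene rpn-10 had 72.2 and 121 CPM in the shared pair against 87.2 to 90.2 CPM in mIn1, and 0.05 ± 0.12 over all mutants. The ATPase gene rpt-3 had 0.16 ± 0.15.

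In the lid, rpn-5 had the lowest value over all mutants, -0.13 ± 0.19, with 114 and 212 CPM in the shared pair and 147 to 246 CPM in mIn1. For rpn-6.1, the lid subunit whose overexpression is known to raise proteasome activity in C. elegans, the value was -0.07 ± 0.18, with 89.2 and 157 CPM in the shared pair, 101 and 108 CPM in rps-10(0)/+ and 119.8 and 112 CPM in rps-23(0)/+. For its paralog rpn-6.2 the value was -0.04 ± 0.32, at 7.02 to 24.5 CPM in the 6 mutant libraries. The remaining lid genes lay between these and rpn-3.

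The libraries of the shared pair were unlike each other in these genes. Of 33 members, 26 were lower in the library headed replicate 1, by a median of 0.31 on the log2 scale for the core and 0.54 for the 19S particle. The difference went with the length of the gene. Across members its correlation with log2 coding length was r = -0.52 and rho = -0.48 (n = 33, genes of the same libraries and not independent replicates). Over all genes the difference was 0.25 for 2072 genes with under 750 coding bases and -0.14 for 1412 genes with over 2500. For the same genes, the mIn1 replicates differed by 0.11 and -0.12 at day 3 and by 0.11 and -0.08 at day 4. The values were -0.07 and 0.08 in rps-10(0)/+ and 0.02 and -0.05 in rps-23(0)/+. Core genes have 606 to 852 coding bases and 19S genes 750 to 2943. Set against the mIn1 day 3 controls, the median core difference was 0.26 and 0.46 in the libraries of the shared pair and the median 19S difference -0.08 and 0.51. The part of length in these differences was not tested.

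Against the day 3 controls alone, meant to match the mutants by stage, 0 members were called with the columns as headed. The shared pair had 4 members at an unadjusted edgeR p under 0.05, where 0.992% of 9174 genes rose and 0.512% fell, rps-10(0)/+ had 0, where 0.131% were, rps-23(0)/+ had 1, where 1.56% were, and all mutants had 1, where 0.484% of 8473 genes were. The member with the lowest p was rpn-3 in the shared pair, with a log2 fold change of 0.85 ± 0.24 (edgeR adjusted p = 0.131). The tmC5 columns enter the comparisons of the shared pair and rps-10(0)/+ only through the scaling, filter and spread that all groups share. Without them, 3 members rose in the shared pair. They were rpn-3 (log2 fold change 0.82 ± 0.17, edgeR adjusted p = 0.00249), pas-5 (0.74 ± 0.18, edgeR adjusted p = 0.00980) and the base ATPase gene rpt-3 (0.60 ± 0.18, edgeR adjusted p = 0.0369), of 33, where 6.64% of 9186 genes rose. For rpt-3 the shared pair had 189 and 163 CPM against 109.5 and 112 CPM at day 3 and 200.3 and 157 CPM at day 4, so that it lay within the day 4 range. The rise of rpn-3 was also called by every alternative test and without each library. That of pas-5 was lost without mIn1 day 3 replicate 1 (edgeR adjusted p = 0.0906), and that of rpt-3 under library totals, under DESeq2 and without any 1 of 8 of the 11 libraries in the fit (edgeR adjusted p up to 0.163). Without each library in turn, the log2 fold change ran from 0.80 to 0.90 for rpn-3, 0.64 to 0.95 for pas-5 and 0.53 to 0.78 for rpt-3. The members called in the shared pair were all higher without its replicate 1 and went both ways without its replicate 2. In rps-23(0)/+, 1 member rose, again rpn-3 (0.96 ± 0.21, edgeR adjusted p = 0.00700), where 3.82% of genes rose. That comparison rests on 1 control library, whose markers lay away from those of the mutant. The summed yolk level was 17149 and 22559 CPM in rps-23(0)/+ against 1937 CPM in that library, and the summed oocyte and eggshell level 2771 and 2733 CPM against 648 CPM. The part of this difference in the rise was not tested, and rpn-3 also rose with control age, as described below. The call was lost without rps-23(0)/+ replicate 1 (edgeR adjusted p = 0.0514). In rps-10(0)/+, 0 members were called, where 2.46% of genes were, and rpn-3 had 0.18 ± 0.17. Over all mutants 0 were called with 10 at an unadjusted edgeR p under 0.05, where 1.67% of 8333 genes were called.

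Against the day 4 controls alone, 0 members were called with the columns as headed. The shared pair had 1 at an unadjusted edgeR p under 0.05, where 10.6% of 9173 genes were called in either direction, rps-10(0)/+ had 0, where 0.0327% were, rps-23(0)/+ had 0, where 0.0545% were, and all mutants had 0, where 0.693% of 8086 genes were. In that fit rpn-1 had -0.93 ± 0.40 in the shared pair (edgeR adjusted p = 0.120). When the pair of tmC5 columns and also the tmC20 column headed for both days were left out, the shared pair had 1 member called, rpn-1, which was lower (-0.96 ± 0.29, edgeR adjusted p = 0.0133), where 46.9% of 9333 genes were called in either direction. Its value ran from -1.71 without shared pair replicate 2 to -0.47 without shared pair replicate 1, the library in which long genes were low. It was not called without replicate 1 (edgeR adjusted p = 0.0859), or without mIn1 day 4 replicate 1 (edgeR adjusted p = 0.0562). In this comparison rpn-3 had 0.54 ± 0.22 (edgeR adjusted p = 0.0513). For rps-10(0)/+, and likewise for rps-23(0)/+, each then set against 1 control library, 0 members were called, where 24.5% and 35.1% of genes were, in either direction. The median member was at -0.23 and -0.07 beside 0.04 and 0.06 for all genes. With the columns as headed it was at -0.12 and 0.14 beside -0.04 and -0.07. Over all mutants 0 were called with 4 at an unadjusted edgeR p under 0.05, where 50.1% of 8596 genes were called. The stage markers of the mutants lay far from those of the day 4 controls. Their summed yolk level was 4552 to 22559 CPM and their summed molting level 2238 to 15822 CPM. Whether the 3 mutant changes differed from each other was tested as 1 term. It called 0 members with 0 at an unadjusted edgeR p under 0.05, where 0.0216% of genes were called. The lowest p was that of pbs-4 (edgeR adjusted p = 0.796), and with day 3 controls without the tmC5 columns that of rpn-3 (edgeR adjusted p = 0.105).

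The controls of 3 balancers allowed day 4 to be compared with day 3 without an RP mutation. With all columns as headed, 0 members were called in mIn1 (5 at an unadjusted edgeR p under 0.05, where 0.0531% of 9416 genes were called), 0 in tmC20 and 0 in tmC5 (0 and 0 at an unadjusted p under 0.05, where 0% of genes were called in each) and 0 over the 3 balancers (0 at an unadjusted p under 0.05, where 0.0850% were called). The median member had log2 fold changes of 0.44 in mIn1, 0.27 in tmC20 and 0.01 in tmC5. Without the pair of tmC5 columns, 22 members rose and 1 fell over the balancers, where 29.3% of 9395 genes rose and 30.2% fell. The 19S particle accounted for 16 of the 22, with 8 of 10 base genes and 8 of 9 lid genes, against 3 of 7 alpha and 3 of 7 beta genes. The genes that rose were pas-1, pas-2, pas-5, pbs-2, pbs-3 and pbs-6 in the core, rpt-1 to rpt-5, rpn-1, rpn-2 and rpn-13 in the base, and rpn-3, rpn-5, rpn-6.1, rpn-7, rpn-8, rpn-9, rpn-11 and rpn-12 in the lid. The median log2 fold changes were 0.54 for the base, 0.57 for the lid, 0.32 for the alpha genes and 0.31 for the beta genes, beside -0.02 for all genes. With the columns as headed these medians were 0.28, 0.35, 0.12 and 0.12, beside -0.05. Whether the 19S and 20S genes differed in their change was not tested. Together they were 14 to 23 with other scalings, tests and filters, 14 without mIn1 day 3 replicate 1 and 15 without rps-23(0)/+ replicate 2, which entered the fit through its spread.

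**Figure D4:**
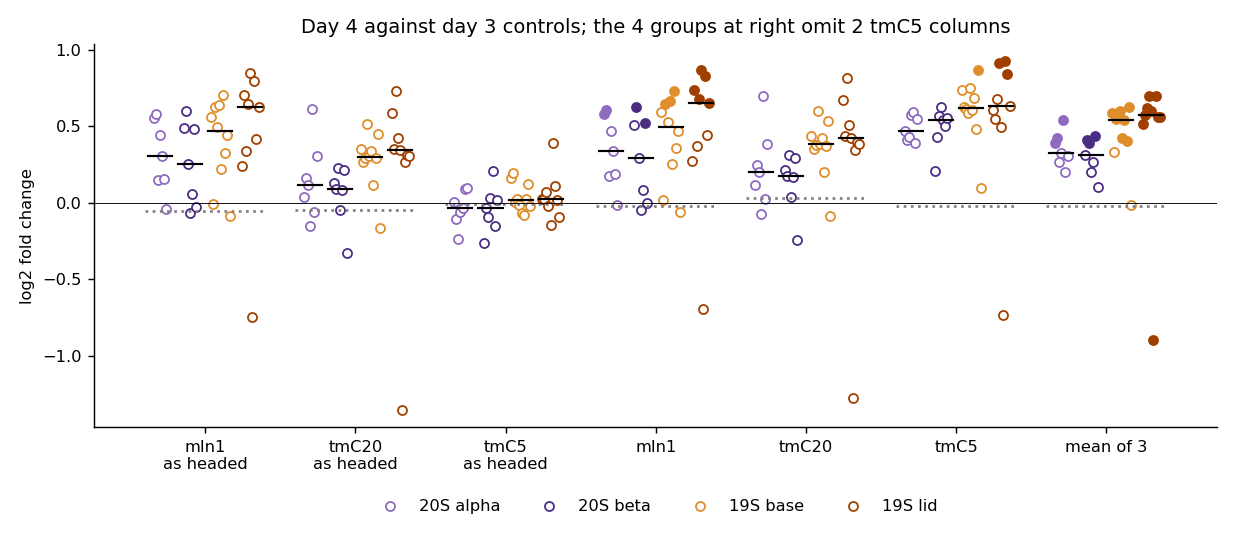
Log2 fold change of each member from day 3 to day 4 in the wild-type controls, by subcomplex. The groups at left show each balancer with its columns as headed, where every point is open. Those at right show each balancer and the mean of the 3 balancers without the pair of tmC5 columns. Filled points have an adjusted p under 0.05, black bars are medians of the subcomplex and dotted grey lines the median of all genes tested. Over the balancers, the base and lid medians lie at 0.54 and 0.57 and the alpha and beta medians at 0.32 and 0.31, and the isolated low point is rpn-6.2.

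The library values below leave out the pair of tmC5 columns and the tmC20 column headed for both days. The fits leave out the pair of tmC5 columns. The clearest rise with age was then that of the lid gene rpn-7. Its day 3 libraries had 125 and 129 CPM in mIn1, 156 CPM in tmC20 and 130.2 CPM in tmC5, and its day 4 libraries had 214 and 224 CPM, 191 CPM and 226 CPM. In these libraries every day 4 value lay above every day 3 value. The columns left out had 209 CPM (tmC5 headed day 3), 138.9 CPM (tmC5 headed day 4) and 149 CPM (tmC20). The log2 fold change was 0.70 ± 0.15 over the balancers (edgeR adjusted p = 0.000744) and 0.83 ± 0.20 in mIn1 (edgeR adjusted p = 0.00331, or 0.0504 without mIn1 day 3 replicate 1). The lid gene rpn-5 rose by 0.70 ± 0.18 (edgeR adjusted p = 0.00326), from 147, 159, 212 and 136 CPM at day 3 to 246, 228, 289.9 and 234 CPM at day 4. For rpn-6.1 the day 3 libraries had 99.2, 89.5, 112 and 96.9 CPM and the day 4 libraries 187, 148, 145 and 125 CPM, a log2 fold change of 0.60 ± 0.18 (edgeR adjusted p = 0.00856). In both the ages did not overlap. For rpn-3, 259, 271, 211 and 177 CPM at day 3 stood against 384, 278, 357 and 259.6 CPM at day 4, which overlapped although the mean rose by 0.62 ± 0.16 (edgeR adjusted p = 0.00273). The level of rpn-3 in the shared pair was above all of these. With the columns as headed, the changes over the balancers were 0.39 for rpn-7, 0.35 for rpn-5, 0.35 for rpn-6.1 and 0.38 for rpn-3. None of these was called.

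The single member that fell was rpn-6.2, the paralog of rpn-6.1. It had 20.2, 24.04, 26.5 and 19.6 CPM at day 3 and 10.5, 15.3, 10.5 and 10.8 CPM at day 4, with a log2 fold change of -0.90 ± 0.29 (edgeR adjusted p = 0.0142), opposite in sign to rpn-6.1. In the base, rpn-1 rose by 0.59 ± 0.21 (edgeR adjusted p = 0.0214) and rpt-3 by 0.54 ± 0.16 (edgeR adjusted p = 0.00674). The ATPase gene rpt-6 had 174, 176, 188 and 194 CPM at day 3 and 150.2, 175, 171 and 190.5 CPM at day 4, a log2 fold change of -0.02 ± 0.18 with a 95% interval from -0.40 to 0.37. With the columns as headed, rpn-6.2 had -0.57, rpn-1 0.36, rpt-3 0.25 and rpt-6 -0.09. The core genes that follow had 0.29 (pas-5), 0.21 (pas-2), 0.22 (pbs-2), 0.12 (pbs-1) and 0.12 (pbs-5) as headed. None of these as-headed changes was called. In the core, pas-5 rose by 0.54 ± 0.16 (edgeR adjusted p = 0.00697), pas-2 by 0.42 ± 0.16 (edgeR adjusted p = 0.0293) and pbs-2 by 0.41 ± 0.16 (edgeR adjusted p = 0.0372), and pbs-1 and pbs-5 had 0.31 ± 0.16 and 0.26 ± 0.15 and were not called.

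**Figure D5:**
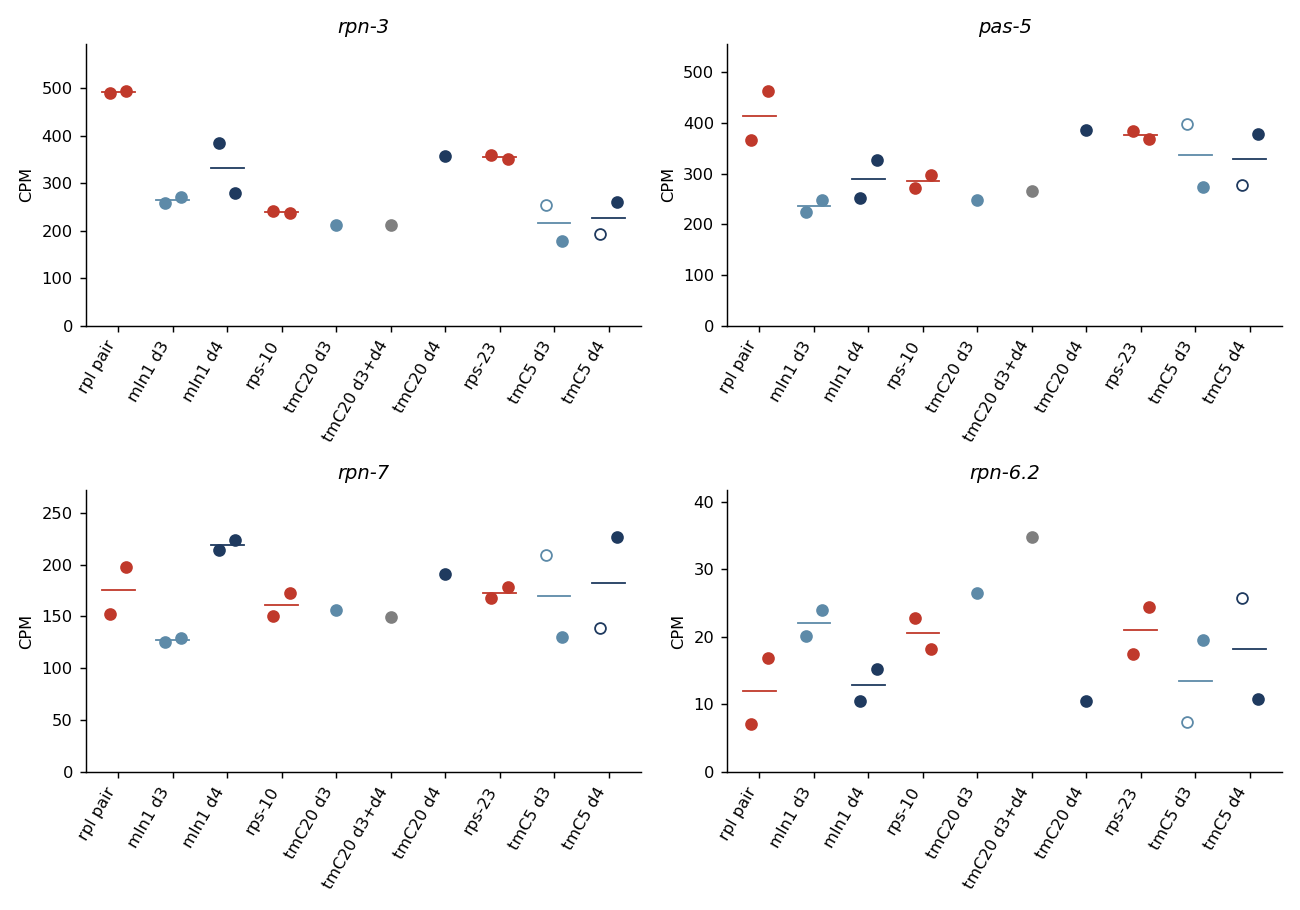
CPM of rpn-3, pas-5, rpn-7 and rpn-6.2 in each RNA library, by group. Open circles are the pair of tmC5 columns whose stage markers go against their headings. The shared pair is highest for rpn-3 (489 and 494 CPM). With the open circles set aside, day 4 controls lie above day 3 controls for rpn-7 and below them for rpn-6.2.

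Within single balancers, without those tmC5 columns, 12 members rose in mIn1 (where 21.5% of genes rose), 0 in tmC20 (9.20%) and 4 in tmC5 (18.3%), namely rpn-5, rpn-7, rpn-8 and rpt-5. Those of mIn1 were pas-1, pas-2, pbs-2, pbs-6, rpt-1, rpt-3, rpn-13, rpn-5, rpn-6.1, rpn-7, rpn-9 and rpn-12. The tmC20 and tmC5 values compare 1 library with 1, with the spread taken from the other groups, and the mIn1 count fell to 1 without mIn1 day 3 replicate 1 or without mIn1 day 4 replicate 1, to 2 without mIn1 day 3 replicate 2, to 6 without rps-10(0)/+ replicate 2 and to 5 without rps-23(0)/+ replicate 2. The 4 day 4 libraries lay above the 4 day 3 libraries, without overlap, for 18 of 33 members (13 of 19 in the 19S particle and 5 of 14 in the core), where 23.5% of all genes did. Markers of other tissues and stages moved with age. From day 3 to day 4 the summed level of 17 oocyte and eggshell genes went from 413 to 2776 CPM to 10066 to 12428 CPM, and that of 15 germ cell genes from 1465 to 2434 CPM to 2574 to 3052 CPM. That of 9 body muscle genes went from 18269 to 22716 CPM to 6737 to 11665 CPM, that of 9 of 10 intestine genes from 8215 to 11490 CPM to 4017 to 4980 CPM, and that of 10 neuron genes from 396 to 627 CPM to 240 to 307 CPM. That of 42 sperm genes was 202 to 1074 CPM at day 3 and 375 to 694 CPM at day 4, which overlapped. The part of these shifts in the members' change was not tested.

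Genes that work with the proteasome were taken from lists and counted in the same fits. Of 7 proteasome partners tested, 2 rose in the shared pair, where 173 of 9276 genes rose, and 1 in rps-23(0)/+, where 35 did. For aip-1, the worm homolog of the arsenite-inducible proteasome-associated protein AIRAP, the shared pair had 1273 and 922 CPM against 187, 161, 102 and 79.8 CPM in mIn1 (log2 fold change 3.07 ± 0.54, edgeR adjusted p = 0.00924). In rps-23(0)/+ aip-1 had 225 and 232 CPM against 39.4, 34.7, 40.3 and 33.3 CPM in tmC5 (2.62 ± 0.55, edgeR adjusted p = 0.0435), and in rps-10(0)/+ 24.9 and 35.4 CPM against 30.7, 32.9 and 177 CPM in tmC20. The shared pair and rps-23(0)/+ lay above every control and rps-10(0)/+ did not. The other partner was ubql-1, a ubiquilin that shuttles ubiquitinated proteins, with 375 and 307 CPM in the shared pair against 105 to 184 CPM in mIn1 (1.34 ± 0.24, edgeR adjusted p = 0.00983).

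Of 8 ubiquitin and E1 genes, 2 rose in the shared pair, where 173 of 9276 genes rose. The ubiquitin-activating enzyme gene uba-1 had 789 and 1162 CPM against 391 to 594 CPM (1.05 ± 0.24, edgeR adjusted p = 0.0349), and ubq-2, which encodes ubiquitin fused to a ribosomal protein, had 2289.9 and 1539.7 CPM against 717 to 1043 CPM (1.12 ± 0.23, edgeR adjusted p = 0.0226). The list of SKN-1A activation and endoplasmic reticulum-associated degradation also held a p38 kinase cascade (tir-1, nsy-1, sek-1 and pmk-1). Of its 11 genes tested, 0 were called in each of the 3 mutants. The same held for 13 p97 segregase genes, 18 E2 enzymes, 19 cullins and adaptors and 21 autophagy genes. Against day 3 controls without the tmC5 columns, the same 4 partner, ubiquitin and E1 genes rose in the shared pair and aip-1 in rps-23(0)/+. There the E2 gene let-70 and the autophagy receptor gene sqst-1 also rose in the shared pair (where 6.64% of all genes rose) and nsy-1, a kinase gene of the SKN-1A list, fell (5.94%). In the same fit sqst-1 rose in rps-10(0)/+ (0.871%) and the autophagy gene epg-2 fell in rps-23(0)/+ (4.28%). skn-1 had 192 and 219 CPM in the shared pair against 137 to 166 CPM in mIn1 (0.47 ± 0.20, edgeR adjusted p = 0.223). dss-1, a lid component whose symbol lies outside the rule, had 40.4 and 30.0 CPM against 16.4 to 18.99 CPM (1.02 ± 0.33, edgeR adjusted p = 0.128). From day 3 to day 4, without the tmC5 columns, where 29.3% of all genes rose and 30.2% fell, 5 of 7 partners, 10 of 13 p97 genes, 7 of 18 E2 genes, 9 of 19 cullins and adaptors, 7 of 21 autophagy genes, 3 of 8 ubiquitin and E1 genes and 1 of 11 genes of the SKN-1A list (hrdl-1) rose. The shares of the E2, autophagy and ubiquitin and E1 lists were near that of all genes. On the SKN-1A list 4 genes fell, tir-1, nsy-1, sek-1 and pmk-1, those of the p38 kinase cascade. The activity of SKN-1A was not measured. Falls elsewhere were 2 E2 genes, 3 cullins and adaptors, 4 autophagy genes and 1 ubiquitin and E1 gene.

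Ribo-seq, which counts ribosome-protected fragments, was shallow. The 20 libraries used had 1081 to 9637 counts each, and 49 genes passed the filter on low counts, of which 0 were members. Over all libraries the members had between 3 (rpn-6.2) and 39 (rpn-1) counts per gene, so that no single subunit could be compared at this depth. In sum, members took 678 of 66009 counts, 280 in the core and 398 in the 19S particle. Their share was 0.986% in the 8 mutant libraries (95% Wilson interval 0.880 to 1.10) and 1.06% in the 12 control libraries (0.961 to 1.17), which overlap. It was 0.943% in 6 day 3 control libraries (0.817 to 1.09) and 1.21% in 6 day 4 control libraries (1.05 to 1.39). By mutant it was 0.786% in rpl-33(0)/+ (0.603 to 1.02), 1.08% in rpl-5(0)/+ (0.915 to 1.27), 0.921% in rps-10(0)/+ (0.715 to 1.19) and 1.14% in rps-23(0)/+ (0.843 to 1.53). The controls had 0.853% over mIn1 (0.722 to 1.01), 1.16% over tmC20 (0.968 to 1.38) and 1.32% over tmC5 (1.10 to 1.57), and each mutant's interval overlapped that of its balancer. These intervals cover counting error only, and the columns of rpl-5(0)/+ and rpl-33(0)/+ were distinct here.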

How the data were processed

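RNA-seq and Ribo-seq libraries came from split lysates of whole animals. For both assays the authors deposited unnormalized counts per gene, made with RiboFlow against WBcel235 transcripts, and collapsed Ribo-seq reads that shared a molecular identifier. Left out were 6 Ribo-seq columns headed R4. The members, the lists of partner and marker genes and the tests were chosen with earlier results of these data known.

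RNA counts were filtered with filterByExpr (minimum count 10), scaled by TMM and fitted in edgeR 4.0.16 (R 4.3.3). All groups shared 1 fit. The test was edgeR's quasi-likelihood test, with Benjamini-Hochberg adjustment over all genes tested and a threshold of 0.05. The 3 pairs of identical columns were counted once, which departs from the written design, where each was a library. CPM are TMM-scaled. SEs were derived from the fold change and its p, and 95% intervals from the t quantile. Alternatives were library totals, DESeq2 1.42.0 size factors and test, limma 3.58.1 voom, other filters, 1 control age, a replicate block and leaving out each library. Each member of the 4 subcomplexes with the highest or lowest change over all mutants, the catalytic genes, rpn-6.1, rpn-6.2, rpn-10, the largest age change per subcomplex in mIn1 and every member called in a mutant comparison were named with values, and rpn-7 was added after its values were seen. The code was tested on simulated data. Sequences are from RefSeq, WBcel235. Ribo-seq was given as shares with Wilson intervals.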

Additional observations from a re-analysis of the deposited data

Results flagged for a closer look

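In the plot of single members by library, the level of rpn-3 in mIn1 day 4 replicate 1 stood apart from the other mIn1 controls, at 384 CPM where they had 259 to 278 CPM (gap over range 0.844). The level of rpt-6 stood apart in the same library in the other direction, at 150.2 CPM where the others had 174 to 176 CPM (gap over range 0.948). These were 2 of 37 sets of 4 libraries examined, and chance gives about 1 in 20.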

How the results depend on the processing

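With the columns as headed, 0 members were called in the 3 mutants, over all mutants, between mutants and between control ages under every scaling, test and filter and without each library. Leaving out the pair of tmC5 columns, a choice made after the data had been seen, gave 12 members called with age in mIn1 (10 with the mIn1 controls alone), 4 in tmC5 and 23 over the balancers, and with day 3 controls 3 in the shared pair and 1 in rps-23(0)/+, and with day 4 controls, where the tmC20 column headed for both days was left out as well, 1 in the shared pair. In those comparisons, the count with age over the balancers was 14 with at least 10 counts in every library, that in mIn1 was 5 under DESeq2, that in tmC20 was 1 under limma voom, and that in tmC5 was 2 under DESeq2 size factors and both other filters and 0 under DESeq2. Against day 4 controls the shared pair had 10 members called under library totals, all lower. It had 2 under limma voom (1 higher, 1 lower) and 3 with at least 10 counts (2 higher, 1 lower). All mutants had 9 under library totals, 2 under DESeq2 size factors, 4 under DESeq2 and 2 under limma voom, all lower. In the main fits 46.9% of all genes were called in the shared pair and 50.1% over all mutants. Shares of all genes under these settings were not computed. Against controls of both ages, library totals put the all-gene median of the shared pair at -0.32. Against day 3 controls all mutants had 1 under DESeq2, which was higher.

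Without each library in turn, counts ran from 1 to 14 for age in mIn1, 0 to 1 in tmC20, 0 to 6 in tmC5 and 14 to 23 over the balancers. They ran from 1 to 7 for the shared pair against day 3 and from 1 to 7 against day 4 controls, from 0 to 1 for rps-23(0)/+ against day 3 controls and from 0 to 3 for all mutants against day 4 controls. The direction of the calls in the shared pair depended on which of its libraries was left out. Against day 4 controls they were all higher without its replicate 1 and all lower without its replicate 2. Against day 3 controls they were all higher without its replicate 1 and went both ways without its replicate 2. Each of these fits leaves 1 library of the shared pair, and shares of all genes were not computed for them. The Ribo-seq share of the mutants ran from 0.959% to 1.02%.

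Medians depended on scaling and controls. Under library totals the shared pair had -0.12 for the core and -0.28 for the 19S particle, and rps-23(0)/+ had -0.011 for the core. The 19S median of the shared pair was 0.33 with day 3 controls and 0.30 with day 3 controls without the tmC5 columns, where the core median of rps-23(0)/+ was 0.34. A setting of controls labelled L4 held the same libraries as the day 3 controls, so that it adds no separate check. With day 4 controls without them and without the tmC20 column headed for both days the 19S median was -0.30 in rps-10(0)/+ and -0.12 in rps-23(0)/+. Without each library, the 19S median ran from -0.27 to 0.20 in the shared pair, from -0.14 to 0.08 in rps-10(0)/+, from -0.06 to 0.20 in rps-23(0)/+ and from -0.05 to 0.09 over all mutants, and the core median from 0.10 to 0.35, -0.17 to 0.02, 0.05 to 0.25 and 0.02 to 0.13.

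Changes over all mutants that were not called turned in sign. Under library totals, where the median of all genes was -0.17, these were pas-4 -0.10, pbs-1 -0.13, rpn-10 -0.11 and rpt-3 -0.016, and rpt-6 with age 0.0099. Under limma voom rpn-6.2 had 0.13. With day 3 controls pbs-2 had 0.025, rpn-5 0.00090 and rpn-6.1 0.080, and without the tmC5 columns 0.091, 0.12 and 0.20. With day 4 controls pas-4 had -0.011, pbs-1 -0.025 and rpn-10 -0.040, and without the tmC5 and shared tmC20 columns pas-2 had -0.043, pas-4 -0.091, pbs-1 -0.15, rpn-10 -0.065, rpn-6.2 0.63 and rpt-3 -0.11. Without the tmC5 columns alone pbs-1 had -0.022 and rpn-10 -0.015. Without each library, pas-4 ran from -0.061 to 0.12, pbs-1 from -0.045 to 0.095, rpn-10 from -0.066 to 0.12, rpn-6.2 from -0.17 to 0.11 and rpt-6 with age from -0.091 to 0.0097. The cause was not tested in these cases.

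Among the 12 numbered columns, a replicate block called 0 members in each mutant comparison, as did the same columns without it, with 16 genes called over all mutants against 23. The labels do not tie the numbers to a shared batch, and same-numbered libraries did not deviate together (correlation -0.00011 for rps-10(0)/+ and tmC20, 0.026 for rps-23(0)/+ and tmC5). Restricting tmC5 to its labelled stages was not run, since the columns cannot be tied to samples. Depth limits rpn-6.2 and all Ribo-seq values.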
